A study of Mus musculus with 4 samples.

Results

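Antimicrobial peptides and alarm proteins of the epidermis were followed in the back skin of mice whose keratinocytes lacked ADAM17, a membrane-bound protease that sheds ligands of the epidermal growth factor receptor. The group holds 9 genes: the S100 proteins S100a8, S100a9 and S100a7a, the beta-defensins Defb3, Defb4, Defb6 and Defb14, the protease inhibitor Slpi and the cathelicidin Camp. Members were found by name, as every gene probe of the array whose gene name was on that list. This gave 9 probes for 8 genes out of 41174 probes in all, because no probe carried the name Defb4. Of these, 7 probes for 7 genes were bright enough to be tested among 15552 genes. Defb14 and a second Slpi probe were not.

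The tested animals were 2 conditional knockout mice, called cKO, which were Adam17flox/flox and positive for Krt14-Cre. Their controls were 2 Cre-negative Adam17flox/flox littermates, so that floxed alleles were present in every animal. Each litter gave 1 cKO and 1 control animal, all aged 10 days and on a mixed 129Sv and C57BL/6 background. The keratin 14 promoter drives Cre in basal keratinocytes, so other cells of the biopsy, such as dermal, fat, muscle and immune cells, keep Adam17. The total RNA of each animal went on an array of its own, and the 4 arrays shared 1 slide. A level is given below as log2 of the processed signal relative to the array's 75th percentile, so that 0 is the level of the probe at that percentile, and levels of different probes are not compared with each other. A difference is cKO minus control on this log2 scale.

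S100a8 and S100a9 are small calcium-binding proteins that pair to form calprotectin, which starves microbes of zinc and manganese and acts as an alarm signal. They are abundant in neutrophils and are also made by keratinocytes in injured or inflamed skin. Beta-defensins and cathelicidin are short cationic peptides that damage microbial membranes and attract immune cells, and in skin their genes respond to cytokines such as interleukins 1, 17, 22 and 36. Slpi, the secretory leukocyte protease inhibitor, blocks neutrophil elastase and cathepsin G and has antimicrobial activity of its own.

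The beta-defensin genes lie close together on chromosome 8 and are similar in sequence, which bears on what the array could read. The probe named Defb3, at chr8:19293364-19293423 on the plus strand of mm9, lists RefSeq accessions of Defb3, Defb8 and Defb4 in the array files, so Defb4 was read, if at all, only through this probe. The probe was aligned with 32851 RefSeq windows that run from 250 bases before to 50 bases after each gene's start (GRCm38.p6), and 6 windows matched it at 80% or more of at least 30 bases. These 6 stretches are shown because they bear on how far the probe can be assigned to Defb3. They cannot settle it, since the windows end 50 bases after each start and Defb4 had no window. In the probe, capitals mark the positions at which the window of Defb3 or of Defb6 differs. In the windows, capitals mark each base that differs from the probe.
Defb3 probe: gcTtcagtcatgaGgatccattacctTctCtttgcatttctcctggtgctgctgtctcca
Defb3 window: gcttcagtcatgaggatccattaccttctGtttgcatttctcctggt
Defb46 window: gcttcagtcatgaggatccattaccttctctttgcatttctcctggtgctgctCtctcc
Defb5 window: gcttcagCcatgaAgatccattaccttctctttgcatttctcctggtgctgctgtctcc
Defb8 window: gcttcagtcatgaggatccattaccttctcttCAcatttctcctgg
Defb7 window: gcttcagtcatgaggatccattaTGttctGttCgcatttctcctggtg
Defb6 window: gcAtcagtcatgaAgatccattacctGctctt

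Counted from the probe's 5′ end, the Defb3 window differed by C30G over 47 bases and the Defb46 window by G54C over 59 bases. The Defb5 window differed by T8C and G14A, and the Defb6 window by T3A, G14A and T27G over the 32 bases that it covers. The separate probes of Defb5, Defb7 and Defb8 were not well above background on any of the 4 arrays, and Defb46 had none. Which of these transcripts bound to the Defb3 probe was not tested, and its values are given below under the name Defb3.

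Defb6, Defb14 and Camp were each read by a probe of their own. The probes of Defb14 and Camp are shown because these members read higher in both cKO animals than in both controls, Defb14 mostly below background. The Defb14 probe, at chr8:19195152-19195211, and the Camp probe, at chr9:109749992-109750051 on the minus strand (both mm9), read as follows.
Defb14 probe: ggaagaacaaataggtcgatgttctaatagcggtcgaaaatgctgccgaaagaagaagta
Camp probe: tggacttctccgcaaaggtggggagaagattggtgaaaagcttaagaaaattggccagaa

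The arrays were of like quality. Each held 43379 gene spots, with 53.7% to 56.6% of them well above background and no saturated spot. The signal at the 75th percentile ranged from 751 to 784. Adam17 itself was lower in cKO skin, at -0.14 and -0.12 in the cKO animals against 0.44 and 0.37 in the control animals of litters 1 and 2. This is 69.0% of the control level (difference -0.54 ± 0.09 SE, adjusted p = 0.114 by limma). In whole biopsies, fewer cells of a type and less RNA per cell cannot be told apart, here and in every result below.

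No member of the group passed the threshold of an adjusted p of 0.05 in either direction. The 3 S100 genes were lower in cKO skin in both litters, Camp and Slpi were higher in both, and Defb3 and Defb6 were higher in litter 1 and lower in litter 2. The count of 0 of 7 called members stands beside 53 of 15552 genes called over the whole array (0.341%), of which 11 (0.0707%) had the higher level in cKO skin and 42 (0.27%) the lower. At an unadjusted p under 0.05, 2 of the 7 members, S100a7a and Camp, stood beside 2512 of all genes (16.2%). The fit with litter as a block called none of the 15552 genes, and leaving out 1 array gave between 0 and 38, with 38 without cKO replicate 1, 24 without cKO replicate 2, and 0 without either control.

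By direction, 2 of 7 members were higher in both litters (40.4% of all genes), 3 were lower in both (32.1%) and 2 had opposite signs (27.5%). Both cKO arrays lay above both control arrays for 1 member, Camp (28% of all genes). They lay below for 3 members, the S100 genes (21.4%). The groups overlapped for 3 members, Defb3, Defb6 and Slpi (50.6%). The median difference of the 7 was 0.12, against 0.03 over all genes.

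**Figure D1:**
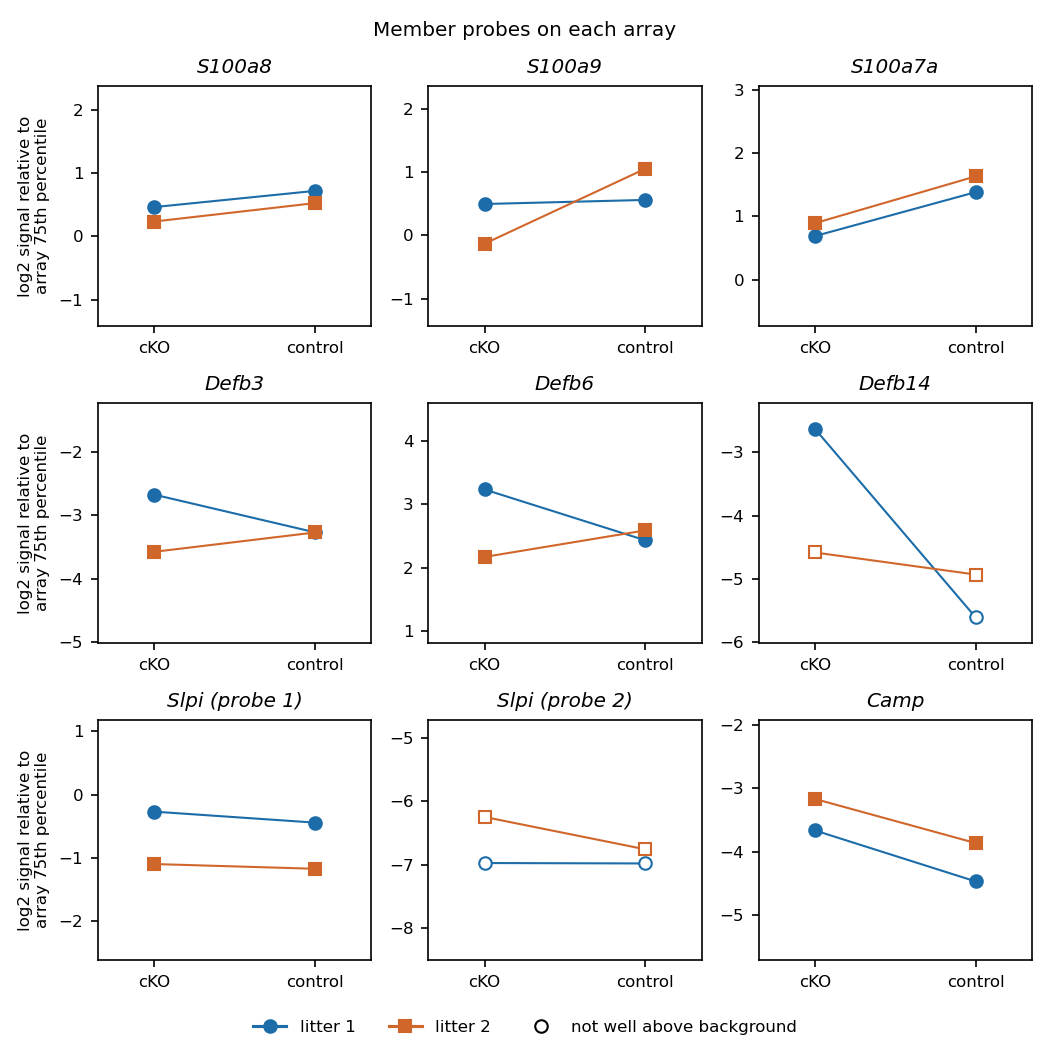
Level of each member probe on each array, as log2 signal relative to the array's 75th percentile, with 1 panel per probe and the same axis length in each. Points are single animals, lines join the cKO and control animal of a litter, and open symbols mark arrays on which the probe was not well above background. The 3 S100 genes were lower in cKO skin in both litters, and Defb3 and Defb6 crossed between the litters.

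S100a7a, the mouse relative of human psoriasin, had the smallest p of the group, with differences alike in the litters. Its probe (chr3:90461922-90461981, plus strand, mm9) read 0.69 and 0.89 in cKO skin of litters 1 and 2, against 1.38 and 1.63 in control skin. Both cKO animals lay below both controls, and the litters differed by almost the same amount, -0.69 and -0.74. The fitted difference was -0.72 ± 0.14 SE (95% interval -1.08 to -0.35), or 60.8% of the control level, with an unadjusted p of 0.00484 and an adjusted p of 0.140. That p ranked 538 among 15552 genes. Across the 16 alternatives the difference stayed between -0.84 and -0.59 and the adjusted p between 0.0813 and 0.729, the lowest of which came from a background correction chosen after seeing the data.

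S100a8, at chr3:90473778-90473837 on the plus strand, read 0.46 and 0.24 in cKO skin, against 0.72 and 0.53 in control skin. The cKO animals were again below both controls, by -0.26 in litter 1 and -0.29 in litter 2. The difference of -0.27 ± 0.13 SE (95% interval -0.62 to 0.08) put cKO skin at 82.7% of the control level, with an adjusted p of 0.403. The gap of 0.03 between the litters was smaller than that of most genes, whose median gap was 0.12.

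S100a9 encodes the partner of S100a8 and is its neighbour, at chr3:90496585-90496644 on the minus strand, yet its difference came almost wholly from litter 2. It read 0.49 and -0.13 in cKO skin, against 0.56 and 1.05 in control skin. In litter 1 the animals were -0.06 apart, and in litter 2 the difference was -1.19, a 2.27-fold lower signal in the cKO animal. This gap of 1.12 between litters was wider than that of 98.7% of all genes. The fitted difference was -0.62 ± 0.28 SE (95% interval -1.38 to 0.13; adjusted p = 0.385). It was -0.31 without cKO replicate 2 and -0.38 without control replicate 2.

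The profiles of this calprotectin pair were compared over the 4 animals. After each gene was centred on its own mean, the root-mean-square distance between S100a8 and S100a9 was 0.33 log2 units. Of the other genes, 13170 lay closer to S100a8 than S100a9 did, while 1416 lay closer to S100a9 than S100a8 did. The distance is not scaled to a gene's spread, which was 0.17 for S100a8 and 0.42 for S100a9 as the root-mean-square of the centred values. A gene that hardly varies lies close to many others, so these counts do not measure how unlike the pair was. The nearest profiles to S100a8 were those of Dusp3, Pabpc2 and Magi2, at distances of 0.012, 0.019 and 0.019. The nearest to S100a9 were Clasp2, Cyp3a25 and Elovl6, at 0.026, 0.040 and 0.082. S100a7a lay nearest to Pgm2, Fgf22 and Padi3, at 0.025, 0.032 and 0.046. With 4 arrays these distances describe the animals and carry no test.

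Neutrophils are the other main source of S100a8 and S100a9, and their markers were mostly undetected. Of 17 neutrophil markers with a probe, S100a8, S100a9 and Camp being left out, only Mmp9, Stfa2l1 and Ctsg were measured. The other 14 did not pass the filter, and 10 of them were well above background on no array, among them the granule genes Elane, Prtn3, Ltf and Ngp. The summed signal of the 3 measured markers, on a linear scale relative to each array's 75th percentile, was 0.58 and 0.69 in cKO skin, against 0.64 and 0.54 in control skin. Stfa2l1 makes up most of these sums, and read -1.43 and -0.97 in cKO skin, against -1.12 and -1.42 in control skin. Mmp9 passed the filter only through the cKO arrays. The sums overlapped between the groups.

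Unlike the neutrophil sums, the sums of basal and of spinous and granular keratinocyte markers stood apart between the groups. The summed signal of 14 spinous and granular markers was 803 and 942 in cKO skin, against 674 and 671 in control skin. Of the 14, 10 were higher in both litters (40.4% of all genes) while 3 were lower (32.1%). The summed signal of 8 basal markers was 714 and 695 in cKO skin, against 650 and 659 in control skin. None of these basal, spinous and granular markers passed the threshold, and the part of these values in the S100 differences was not tested.

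The other S100 genes were mixed in direction. Of 16 listed, 13 had a probe and 10 were measured, and none passed the threshold. In both litters 4 were higher (40.4% of all genes) and 6 lower (32.1%). Their median difference was -0.15 against 0.03 over all genes, and the median was -0.12 in litter 1 and -0.13 in litter 2. The 3 with the smallest p were S100a4, known from fibroblasts and motile cells, S100a3, a hair cuticle protein, and S100a1, known from muscle. S100a4 read 4.52 and 4.24 in cKO skin, against 3.95 and 3.46 in control skin (difference 0.68 ± 0.21 SE, adjusted p = 0.248). S100a3 read 6.97 and 7.02 in cKO skin, against 7.27 and 7.25 in control skin (difference -0.26 ± 0.08 SE, adjusted p = 0.261). S100a1 read 1.63 and 2.01 in cKO skin, against 2.25 and 2.57 in control skin (difference -0.58 ± 0.19 SE, adjusted p = 0.265). S100a3 and S100a1 shared the sign of the 3 S100 members, and S100a4 did not.

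Among the beta-defensins, Defb6, known in mice from skeletal muscle and epithelia, and Defb3, an inducible epithelial defensin, went opposite ways in the litters. Defb6 (chr8:19228090-19228149, plus strand, mm9) read 3.24 and 2.17 in cKO skin, against 2.43 and 2.59 in control skin. The litter differences were 0.80 and -0.42, so that the cKO animal was 1.75-fold above its control in litter 1 and below it in litter 2. The control animals lay between the cKO animals, so the groups overlapped. The fitted difference was 0.19 ± 0.37 SE (95% interval -0.81 to 1.2; adjusted p = 0.834), and it was -0.34 without cKO replicate 1. The summed signal of 6 skeletal muscle markers was 312 and 332 in cKO skin, against 338 and 247 in control skin. Of these markers 4 were higher in both litters (40.4% of all genes) and none was lower (32.1%). Their median difference was 0.14 (litter 1) and 0.54 (litter 2), and their part in the Defb6 values was not tested.

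The Defb3 probe had litter differences of the same signs. It read -2.67 and -3.58 in cKO skin, against -3.27 and -3.27 in control skin, with litter differences of 0.60 and -0.31. Here too both controls lay between the cKO animals. The fitted difference was 0.15 ± 0.32 SE (95% interval -0.71 to 1.0; adjusted p = 0.851), and it was -0.31 without cKO replicate 1. The gap between litters was 0.90 for Defb3 and 1.22 for Defb6, wider than in 97.7% and 99.0% of all genes.

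The profiles of Defb3 and Defb6 were close, with a distance of 0.084 between them. Only 2 of all genes lay closer to Defb6 than Defb3 did and 10 lay closer to Defb3 than Defb6 did, counting genes of every kind. The named neighbours of Defb3 were Asb14, Zfp345 and Cep135, at 0.021, 0.025 and 0.045. Those of Defb6 were Cep135, Defb3 and Tmie, at 0.076, 0.084 and 0.084. The Defb3 probe shares 29 of 32 bases with the Defb6 window shown above, and no part of the Defb6 probe was compared with Defb3 transcripts.

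Because these genes had close profiles over the 4 animals, their promoters are shown from RefSeq, as 250 bases before to 50 after each annotated start. The Defb3 window is chr8:19293111-19293410 and the Defb6 window chr8:19225228-19225527, both on the plus strand of GRCm38.p6, and capitals mark a TATA-like match (TATANA).
Defb3 promoter: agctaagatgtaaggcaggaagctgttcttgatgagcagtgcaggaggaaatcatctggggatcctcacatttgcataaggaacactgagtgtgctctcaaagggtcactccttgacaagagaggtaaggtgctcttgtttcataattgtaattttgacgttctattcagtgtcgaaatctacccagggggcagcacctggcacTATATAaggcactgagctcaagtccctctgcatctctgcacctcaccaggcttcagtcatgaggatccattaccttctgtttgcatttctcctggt
Defb6 promoter: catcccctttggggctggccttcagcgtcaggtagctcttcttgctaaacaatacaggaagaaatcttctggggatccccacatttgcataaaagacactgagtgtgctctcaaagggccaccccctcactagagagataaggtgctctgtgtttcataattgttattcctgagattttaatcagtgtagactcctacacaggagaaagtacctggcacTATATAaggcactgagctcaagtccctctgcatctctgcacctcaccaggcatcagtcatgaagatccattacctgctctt

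Aligned end to end, the Defb3 and Defb6 windows were identical at 239 of 315 positions (75.9%), while the other pairs of members had 45.2% to 50.6%. The TATA-like match began at -46 in Defb3 and at -31 in Defb6, where -1 is the base before the annotated start. Windows were present for 7 of the 9 members, all but Defb4 and Defb14. On either strand, the TATA-like TATANA was found in 5 of these 7 and in 24.7% of all 32851 windows, and the C/EBP-like TTNNGNAA in 5 of 7 and 40.7%. The NF-kB-like motif, GGG and CC with 5 bases of any kind between them, was found in 4 of 7 and 50.8%, the STAT-like TTCNNNGAA in 1 of 7, S100a7a, and 8.30%, and the AP-1 motif TGANTCA in 0 of 7 and 7.81%. Overlapping matches of a motif counted once per window. These matches describe letters in a window and not binding.

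Defb14, the mouse counterpart of human beta-defensin 3, was detected in a single animal. Its probe read -2.63 and -4.58 in cKO skin, against -5.61 and -4.93 in control skin, and it was well above background only on the array of cKO replicate 1. The processed signals were 125 and 32.5 in cKO skin, against 15.4 and 25.7 in control skin. In litter 1, with the control array set at its lowest signal well above background, the cKO signal was at least 4.69-fold higher. In litter 2 the probe was well above background in neither animal, so no bound is given for that litter or for the cKO mean. The probe did not pass the filter and so was not among the 15552 genes tested. Fitted with every probe and no filter, its difference was 1.66 ± 0.71 SE with an adjusted p of 0.770.

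The wider family was mostly not detected. Of 26 other listed beta-defensins, 23 had a probe and 20 of these were well above background on no array. Defb1, which epithelia make without stimulation, read 1.24 and 0.49 in cKO skin, against 1.14 and 1.25 in control skin (difference -0.33 ± 0.27 SE, adjusted p = 0.598). Defb11 and Defb19, the other measured genes, differed by -0.54 ± 0.30 SE and 0.12 ± 0.14 SE, with adjusted p of 0.460 and 0.716. Defb11 passed the filter only through the control arrays and Defb19 only through the cKO arrays. The median of the 3 was -0.33, with -0.11 in litter 1 and -0.76 in litter 2.

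Camp encodes the cathelicidin precursor, which proteases cut to release the active peptide, and it was the only measured member with both cKO animals above both controls. It read -3.67 and -3.17 in cKO skin, against -4.47 and -3.87 in control skin, and was well above background on all 4 arrays. Its processed signals were low, at 60.9 and 86.5 in cKO skin, against 33.9 and 53.8 in control skin. The lowest signals well above background on the control arrays were 25.9 and 31.9. The litter differences were alike, at 0.81 and 0.70. The fitted difference was 0.75 ± 0.28 SE (95% interval 0.01 to 1.5), or 1.68-fold, with an unadjusted p of 0.0489 and an adjusted p of 0.309. It was 0.45 without control replicate 1 and 0.37 under a background correction chosen after seeing the data, and the adjusted p ranged from 0.0989 to 0.735 over the alternatives. Its nearest profiles were Slc15a2, a peptide transporter, Lrrc24 and Trmt9b, at 0.039, 0.065 and 0.070.

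The sums of macrophage and monocyte markers stood somewhat higher in cKO skin beside Camp. Their summed signal was 35.6 and 30.4 in cKO skin, against 29.2 and 19.9 in control skin. Lyz2 makes up most of these sums, and read 4.37 and 4.22 in cKO skin, against 4.05 and 3.39 in control skin. In both litters 9 of 11 markers were higher (40.4% of all genes) and 1 was lower (32.1%). Both cKO animals lay above both controls for Ccr2, Cd14, Lyz2 and Cd68, as for 28% of all genes, and the groups overlapped for the other markers. Ccr2 passed the filter only through the cKO arrays, which favours a higher reading in cKO skin. The neutrophil sums given above, made up mostly of Stfa2l1, overlapped between the groups. The part of these cells in the Camp difference was not tested.

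Slpi was the member closest to 0. Its detected probe (chr2:164179849-164179908, minus strand, mm9) read -0.27 and -1.10 in cKO skin, against -0.44 and -1.17 in control skin. Litter 1 was higher than litter 2 in each genotype by more than the genotypes differed. The litter differences were 0.17 and 0.07, and the fitted difference was 0.12 ± 0.38 SE (95% interval -0.90 to 1.15; adjusted p = 0.898). Its sign turned, to -0.29 without cKO replicate 1 and to -0.24 without control replicate 2. Another Slpi probe, whose start lies 5214 bases away (chr2:164185063-164185122), was not well above background on any array and gave no second reading. Slpi lay nearest to Cep83os, Glo1 and Tmem117, at 0.033, 0.042 and 0.044.

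**Figure D2:**
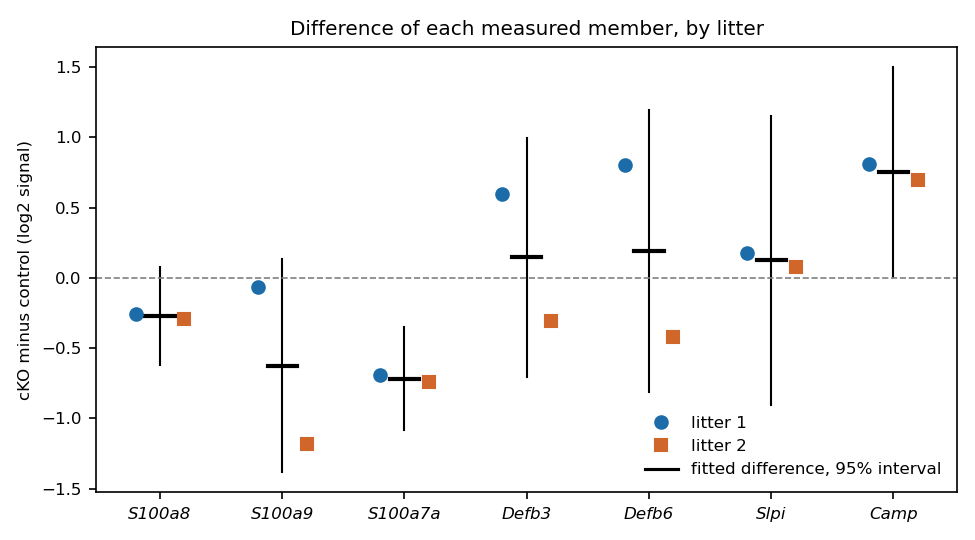
Difference of each measured member, cKO minus control in log2 signal, for litter 1 (circles), litter 2 (squares) and the fit over 4 arrays (bar with its 95% interval). The intervals of S100a7a (-1.08 to -0.35) and Camp (0.01 to 1.5) leave out 0 before adjustment, and the litters stand farthest apart for S100a9, Defb3 and Defb6.

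Other defence proteins of skin were more often higher than lower. Their list was chosen, as companions of these peptides, with earlier results of these data known. Of 39 listed, 35 had a probe and 24 were measured, and none passed the threshold, while 13 had an unadjusted p under 0.05 (16.2% of all genes). In both litters 19 of 24 were higher and 3 lower, where 40.4% and 32.1% of all genes were, and the median was 0.52 (0.31 in litter 1 and 0.69 in litter 2). Saa3, Wfdc12 and Pglyrp1 passed the filter only through the cKO arrays, which favours a higher reading in cKO skin. These counts describe a chosen list and carry no test. The 11 that were well above background on no array included Lcn2, Ltf and the Reg3 lectins Reg3a, Reg3b and Reg3g.

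The 3 defence genes with the smallest p were the acute-phase gene Saa3, Wfdc2 and Pglyrp1. Saa3 read -2.17 and -2.33 in cKO skin, against -4.49 and -5.10 in control skin, where neither array had it well above background. Its cKO signal was at least 4.96-fold higher, with an adjusted p of 0.0534. Wfdc2, which carries the same whey acidic protein domain as Slpi, read -2.09 and -2.19 in cKO skin, against -2.85 and -3.11 in control skin (difference 0.85 ± 0.12 SE, adjusted p = 0.101). Pglyrp1, a peptidoglycan-binding protein, read -3.51 and -4.04 in cKO skin, against -4.71 and -5.06 in control skin (difference 1.11 ± 0.23 SE, adjusted p = 0.158), and it was well above background on 1 control array.

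A list of 47 cytokines, receptors and factors that act in the control of the members also holds inhibitors, such as Il1rn and Nfkbia. Of the 47, 46 had a probe and 34 were measured. None passed the threshold. In both litters 21 were higher and 7 lower, where 40.4% and 32.1% of all genes were, and the median was 0.13. Tnf passed the filter only through the cKO arrays. The cytokines best known for inducing these peptides, Il17a, Il17c, Il17f and Il22, were well above background on no array, as was Il6. Il20ra, a receptor chain for interleukins 19, 20 and 24, read -2.00 and -2.17 in cKO skin, against -3.12 and -3.14 in control skin (difference 1.04 ± 0.10 SE, adjusted p = 0.0534). Il1f6, which encodes interleukin 36 alpha, read -2.45 and -1.89 in cKO skin, against -4.60 and -4.36 in control skin (difference 2.31 ± 0.22 SE, adjusted p = 0.0534). Il1f8, for interleukin 36 beta, read -0.86 and -0.48 in cKO skin, against -2.11 and -1.63 in control skin (difference 1.2 ± 0.22 SE, adjusted p = 0.137). These 3 genes were higher in each cKO animal than in each control, as were 28% of all genes.

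Of 24 receptors and partners of the members, 16 were measured and none passed, and their median was 0.13. In both litters 10 were higher and 1 was lower, where 40.4% and 32.1% of all genes were. Ccr2 and Mmp9 passed the filter only through the cKO arrays. Ager, Ccr6, Fpr1 and Fpr2, which bind S100 proteins, defensins or cathelicidin, were well above background on no array. Plscr1, a phospholipid scramblase, differed by 0.58 ± 0.08 SE (adjusted p = 0.0950) and Tgm2, a transglutaminase, by 0.41 ± 0.09 SE (adjusted p = 0.165). Klk8, a kallikrein protease of the upper epidermis, read 1.23 and 1.39 in cKO skin, against 0.23 and 0.56 in control skin (difference 0.92 ± 0.15 SE, adjusted p = 0.115).

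**Figure D3:**
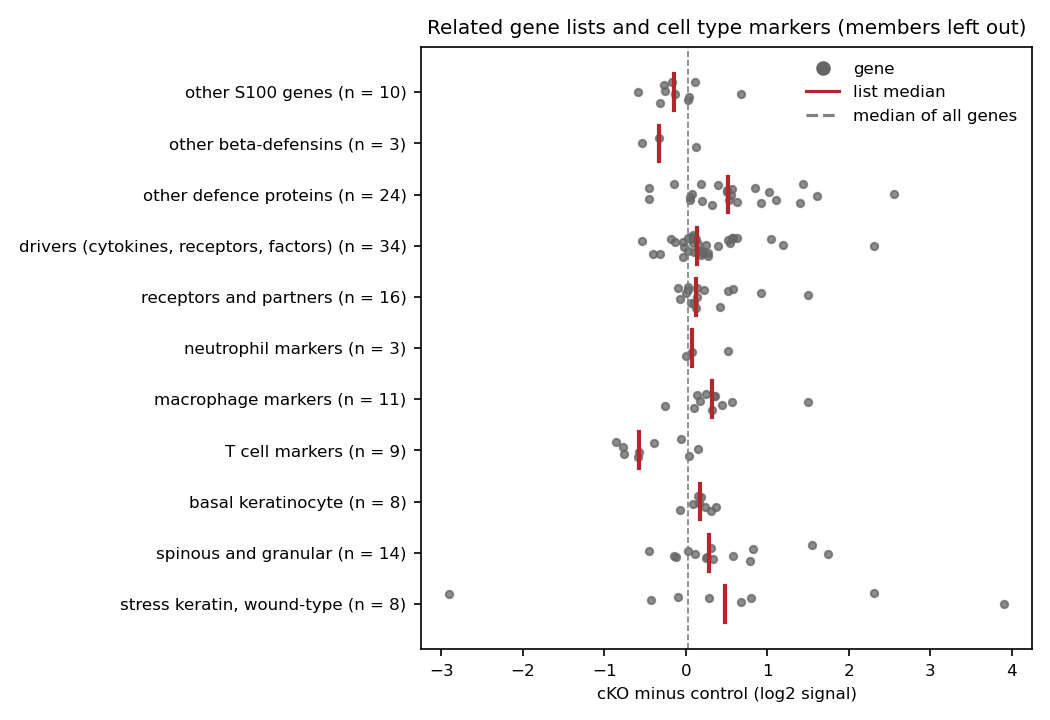
Differences, cKO minus control in log2 signal, of the measured genes of 5 related lists and 6 marker lists, with the members left out. Each point is a gene, the red bar is the list's median and the dashed line the median of all genes (0.03). The median was 0.52 for the other defence proteins and -0.15 for the other S100 genes. The list labelled drivers also holds inhibitors.

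Markers of stressed and immune skin gave the setting of these values. Of 8 genes for stress keratins and wound-type proteins, 5 were higher in both litters (40.4% of all genes) and 3 lower (32.1%). Their median was 0.48, but single differences ran from -2.91 to 3.91. The median was 0.29 with probes well above background on all 4 arrays. Their summed signal was 392 and 404 in cKO skin, against 400 and 411 in control skin, and overlapped between the groups. Of 9 T cell markers, 6 were lower in both litters (32.1% of all genes) and 1 was higher (40.4%). Their median was -0.58, or -0.39 with Cd2, which was below background in both cKO animals, set at its limit. This T cell median depended on the background correction. It was 0.32 with the normexp correction and -0.15 with the correction chosen after seeing the data. The T cell sums were 19.4 and 13.9 in cKO skin, against 18.8 and 14.2 in control skin, and overlapped, since Thy1, which other skin cells also express, makes up most of them. No marker of either list passed the threshold, and their part in the members' values was not tested.

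**Figure D4:**
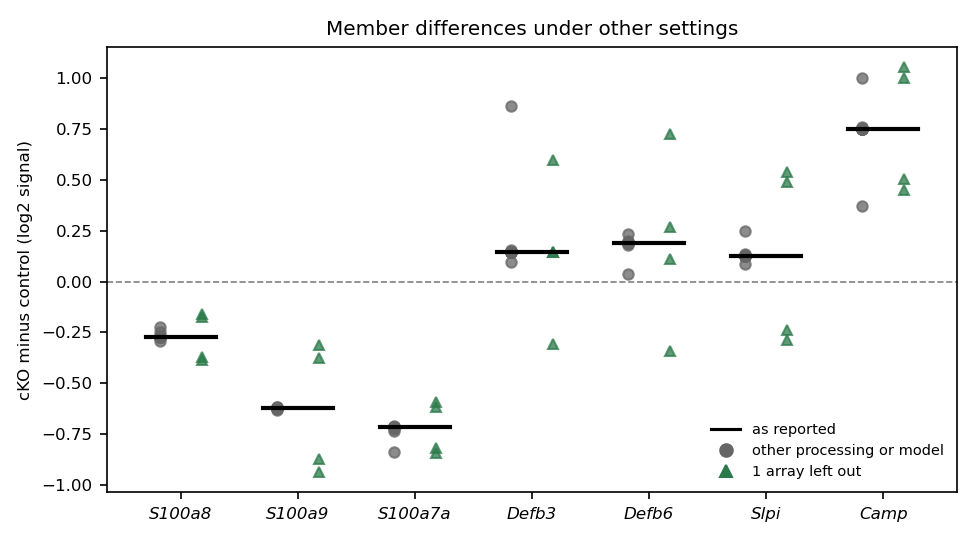
Difference of each measured member, cKO minus control in log2 signal, as reported (bar), under 12 other processing settings or models (circles) and with 1 array left out (triangles). The 3 S100 genes stayed below 0 and Camp above 0 in all of them, while Defb3, Defb6 and Slpi changed sign when an array was left out.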

How the data were processed

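Per the labels' protocols, 500 ng of total RNA per biopsy was labelled with Cy3 and hybridised to a 1-colour Agilent whole mouse genome array (design 014868, probe positions in mm9 per the file headers). The submitters' processing notes name Feature Extraction 10.5, while the file headers give 10.7.3.1. The deposited scanner files hold intensity values, of which the authors' background-subtracted, detrended processed signal was used. The authors' deposited series table gives log2 values. Compared with the scanner files, these were log2 signals from which the 75th percentile of the array and the probe's own median had been taken (slope close to 1, column medians -0.06 and 0.08 for cKO and -0.08 and 0.06 for control replicates), and it served as an alternative. All arrays shared 1 slide and 1 scan, so no batch could be tested.

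The values analysed were log2 processed signals relative to the 75th percentile of their array, without control spots and 51 to 66 outlier spots per array. Probes were kept if flagged well above background in both animals of cKO, of control or of each (22190 of 41174). Where a gene had several probes (5096 genes), the one with the highest mean stood for it, which left 15552 genes. Names came from the accession (26690 probes), a current symbol (5189) or a synonym (952) in RefSeq GRCm38.p6, and 8343 kept the file's name. The listed names Pi3 and S100p match only synonyms of other genes and were left unmatched. The test was limma 3.58.1 under R 4.3.3 (lmFit, eBayes, two-sided, Benjamini-Hochberg over all genes, threshold 0.05, prior degrees of freedom 2.37 and residual 2). The median standard error over all genes was 0.11. With 2 animals per group, the number of arrays limits the precision. The labels pair replicates by litter, and deviations from the group means correlated at 0.35 across genes (Spearman 0.43). The block fit by litter was run as an alternative, since the design text states no model.

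Where a probe was below background in both animals of a group, the fold is a bound ("at least"). On each array of that group, its own signal or the lowest signal well above background was taken, whichever was higher, and the brighter group's mean was divided by their mean. For Defb14 this was done within litter 1 alone. On simulated data for this comparison (15552 genes, 200 changed, 20 simulations) the test recovered 47.0% of 2-fold and 88.7% of 4-fold changes. Of the genes it called, 5.52% were false. The simulated arrays had no litter effect, whereas the measured deviations of littermates correlated at 0.35, so these rates may differ from those in the data.

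The members, the 5 related lists and the 13 marker lists were chosen with earlier results of these data known. All members and their probes are named, with Adam17. From each related list the 3 genes with the smallest p are named as values, and for each measured member the 3 genes with the nearest centred profile. Sex-linked genes and genes with clone or accession names were passed over. Other names were chosen after their values were seen. Listed genes that were members were left out of the lists. Some genes stand in 2 lists. Besides the T cell and stress lists, the median differences of the marker lists were 0.61 for fat, 0.34 for skeletal muscle, 0.17 for basal keratinocytes, 0.28 for spinous and granular keratinocytes, 0.33 for macrophages, 0.07 for neutrophils, -0.04 for sebaceous gland, -0.15 for fibroblasts, -0.15 for hair shaft, -0.26 for endothelium and -0.37 for red cells.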

Additional observations from a re-analysis of the deposited data

How the results depend on the processing

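No member passed the threshold under any of the 16 alternatives run, 2 of which were chosen after seeing the data. Of 112 member differences, 108 kept their sign and their side of the threshold, and 4 turned. Without cKO replicate 1, Defb3 was -0.31, Defb6 -0.34 and Slpi -0.29, and without control replicate 2 Slpi was -0.24. Leaving out 1 array in turn gave -0.84 to -0.59 for S100a7a, -0.39 to -0.16 for S100a8, -0.94 to -0.31 for S100a9, -0.31 to 0.60 for Defb3, -0.34 to 0.72 for Defb6, -0.29 to 0.54 for Slpi and 0.45 to 1.05 for Camp. The fit with litter as a replicate block gave adjusted p of 0.0959 for S100a7a, 0.0989 for Camp, 0.158 for S100a8, 0.335 for S100a9 and 0.357 for Slpi, and it changed no member's call at the adjusted threshold, while 3 members in place of 2 had an unadjusted p under 0.05.

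The share of all tested genes called, 0.341% as reported, moved more. It was 0.688% with the array median (30 genes higher and 77 lower), 0.514% with quantile normalization, 0.187% with probes well above background on all 4 arrays and 0.158% with every probe fitted. With normexp it was 0% (423 genes at an unadjusted p under 0.05), and 0.868% once 3 spots dimmer than their local background on cKO replicate 2 were left out, since these raised the normexp median of that array to 594 against 143 without them. It was also 0% with no filter (2079 genes unadjusted), with every probe and no filter (2863 probes unadjusted) and with the replicate block (3706 genes unadjusted). Leaving out 1 array in turn gave 0% to 0.244%. Except for those spots, the cause was not tested. Of 288 list medians under the alternatives, 221 moved by less than the spread between replicates and 67 by more. Signal over background limits Defb14, detected on 1 array, and most other beta-defensins, detected on none. Camp was detected on all 4 arrays, but at a low signal.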
